A study of Mus musculus with 6 samples.

Results

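Metallothioneins are small, cysteine-rich proteins that bind zinc, copper and cadmium. Some of their genes, Mt1 and Mt2 among them, are switched on by MTF1, a zinc-sensing transcription factor that binds metal response elements (MREs) in promoters. Oxidants and glucocorticoids also switch on Mt1 and Mt2. The genes described here are 6, chosen by name out of 11609 mRNA genes in the tables: the metallothionein genes Mt1, Mt2 and Mt3, the factor gene Mtf1, and the zinc transporter genes Slc30a1 and Slc39a10. Mt1 and Mt2 are made in most tissues, while Mt3 is known mainly from brain. Slc30a1 encodes ZnT1, which exports zinc from the cell and is a known MTF1 target, and Slc39a10 encodes ZIP10, which imports zinc and is reported to be repressed through MTF1.

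The cells were N2a, a mouse neuroblastoma line labelled here as neurons, held in 2% serum with 10 µM retinoic acid for 96 h, which gives them a neuron-like form. RSL3, an inhibitor of the lipid peroxide-reducing enzyme GPX4, was then given to the RSL3 group at 5 µM for 24 h, and the DMSO group received the same amount of solvent without it. Each group had 3 RNA-seq libraries from this 1 line, and the labels do not say whether they came from separate cultures, so the p-values measure only the spread between libraries, which may be technical. The comparison asks how the transcriptome changes when ferroptosis, a death by lipid peroxidation, is induced.

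Levels are in FPKM, fragments per kilobase of transcript scaled to the library's reads, as deposited, and the read depth behind them is unknown. RSL3 was set against DMSO with limma on log2(FPKM + 1), over the 10590 mRNAs that reached 1 FPKM in 3 or more libraries, and a gene was called at a Benjamini-Hochberg adjusted p under 0.05. Log2 fold changes are RSL3 minus DMSO on that scale, which understates the change of low genes. Of the tested mRNAs, 2.46% were called higher and 3.92% lower with RSL3. The median log2 fold change of all tested mRNAs was -0.03.

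The libraries were not alike within the RSL3 group. RSL3 replicate 1 stood apart on the first principal component (-26.2, against -7.35 to -1.25 for the other RSL3 libraries and 9.46 to 13.2 for the DMSO libraries). Each library's difference from the others of its group correlated across genes with transcript GC content at 0.65, -0.61 and -0.24 in RSL3 replicates 1, 2 and 3, against -0.071, -0.048 and 0.11 in DMSO replicates 1, 2 and 3. Of 12 markers of noradrenergic neuroblasts 11 were listed, all but Ddc, and they summed to 393 to 472 FPKM with RSL3 and 491 to 500 FPKM with DMSO. All 15 liver markers were listed, and summed to 17.6 to 31.0 FPKM with RSL3 and 70.0 to 101 FPKM with DMSO. Of the astrocyte, fibroblast, macrophage, endothelial and oligodendrocyte markers 1 of 7, 2 of 7, 1 of 7, 1 of 5 and 2 of 6 were listed, and no list summed to more than 6.62 FPKM in any library. Gm26917 and Gm42418, lncRNAs that overlap ribosomal RNA sequence, summed to 26639 to 33129 FPKM with RSL3 and 18793 to 22979 FPKM with DMSO.

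The 3 metallothionein genes lie side by side on the plus strand of mouse chromosome 8 (build GRCm38, GENCODE M21). Mt3 (ENSMUSG00000031760.9) runs from 94152607 to 94154146, Mt2 (ENSMUSG00000031762.7) from 94172664 to 94173568, and Mt1 (ENSMUSG00000031765.8) from 94179082 to 94180327. The gap between Mt3 and Mt2 is 18517 bases and that between Mt2 and Mt1 is 5513 bases. Their coding transcripts have at most 3 exons. The longest run of bases that annotated transcripts share is 20 bases between Mt1 and Mt2, 27 bases between Mt1 and Mt3, and 20 bases between Mt2 and Mt3. Mtf1 (ENSMUSG00000028890.13) lies on the plus strand of chromosome 4 (124802104 to 124849800) with up to 12 exons. Slc30a1 (ENSMUSG00000037434.7) lies on the plus strand of chromosome 1 (191906767 to 191913247) with 2 exons, and Slc39a10 (ENSMUSG00000025986.6) on the minus strand of the same chromosome (46807544 to 46892852) with up to 10 exons.

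RefSeq promoter windows on GRCm38.p6 were found for all 6 genes, with a pair of windows for Slc39a10. They were searched on both strands for the MRE core, TGCACNC or TGCGCNC, and for the antioxidant response element (ARE) core TGACNNNGC, the site of NRF2. The 250 bases before the transcript start are printed for Mt1, Mt2 and Slc30a1, whose RSL3 libraries all lay above their DMSO libraries, and for Mt3, where the groups overlapped; all are plus strand, with MRE core matches in capitals.
Mt1, chr8:94178839-94179088: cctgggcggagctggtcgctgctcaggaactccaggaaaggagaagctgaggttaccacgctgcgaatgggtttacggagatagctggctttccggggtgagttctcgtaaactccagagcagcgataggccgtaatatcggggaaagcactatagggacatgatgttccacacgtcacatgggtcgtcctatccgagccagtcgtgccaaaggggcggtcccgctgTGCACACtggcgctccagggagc
Mt2, chr8:94172368-94172617: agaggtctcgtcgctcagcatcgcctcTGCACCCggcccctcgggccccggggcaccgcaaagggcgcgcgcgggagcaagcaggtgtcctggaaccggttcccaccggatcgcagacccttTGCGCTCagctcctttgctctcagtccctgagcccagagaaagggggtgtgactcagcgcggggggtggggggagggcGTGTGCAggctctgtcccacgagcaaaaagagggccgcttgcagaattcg
Slc30a1, chr1:191906531-191906780: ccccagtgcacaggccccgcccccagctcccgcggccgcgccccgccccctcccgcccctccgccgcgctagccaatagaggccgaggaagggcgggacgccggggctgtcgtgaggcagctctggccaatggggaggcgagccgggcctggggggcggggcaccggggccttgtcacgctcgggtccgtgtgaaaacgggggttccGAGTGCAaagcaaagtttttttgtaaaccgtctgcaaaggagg
Mt3, chr8:94152357-94152606: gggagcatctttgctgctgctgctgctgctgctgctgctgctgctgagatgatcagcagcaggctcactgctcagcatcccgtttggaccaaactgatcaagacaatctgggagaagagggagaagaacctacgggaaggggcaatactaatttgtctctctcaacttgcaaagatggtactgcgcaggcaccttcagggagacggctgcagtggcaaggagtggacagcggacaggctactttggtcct

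Before the start, the Mt2 sequence holds 3 MRE cores and the Mt1 and Slc30a1 sequences 1 each, while the Mt3 sequence holds 0. Counting on to 50 bases past the start, Mt2 holds 4, Mt1 3, Slc30a1 2 and Mt3 1. Among 32851 RefSeq windows of the same 300 bases, 25.7% hold at least 1 MRE core, 6.14% at least 2, 1.31% at least 3 and 0.295% at least 4. The ARE core occurs in the windows of Mt2 and Slc30a1, without overlap with an MRE core, and in 12.4% of all windows. Neither motif occurs in the windows of Mtf1 and Slc39a10. The windows follow RefSeq starts: the other GENCODE coding transcripts of Mt1 start at 94179211 and 94179241, past the RefSeq start at 94179089, and the sequence just before them is not searched here. The Slc39a10 windows follow RefSeq starts at 46925776, outside the GENCODE gene, and at 46853618. Its GENCODE coding transcripts start at 46892852, 46888070 and 46854046, and the sequence just before these is not searched either. Nor is that before the Mtf1 transcript that starts at 124802104. A match is a match of letters and does not show binding.

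**Figure D1:**
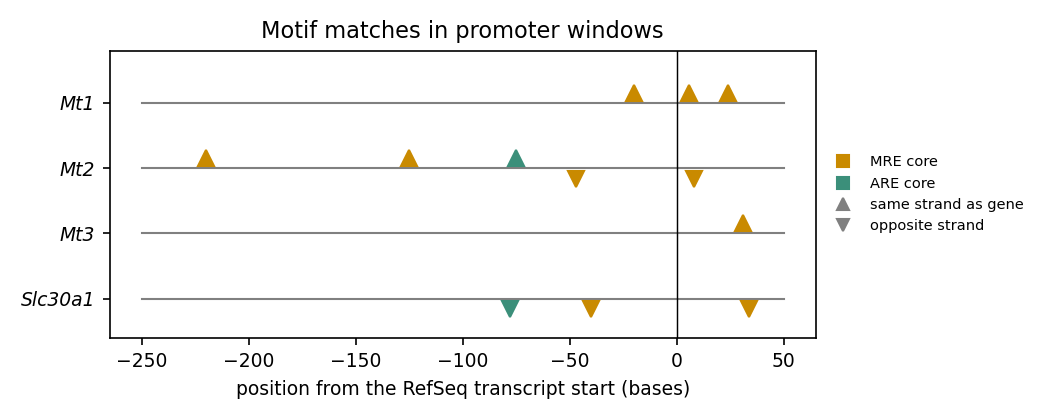
Positions of motif matches in the promoter windows of Mt1, Mt2, Mt3 and Slc30a1, in bases from the RefSeq transcript start; triangles above the line are on the gene's strand and those below on the opposite strand. MRE cores number 3 in the Mt1 window, 4 in that of Mt2, 1 in that of Mt3 and 2 in that of Slc30a1.

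Mt1 rose with RSL3 and was the one gene of the 6 that passed the test. It stood at 20.5, 16.4 and 16.9 FPKM in RSL3 replicates 1, 2 and 3, against 8.39, 8.24 and 8.74 FPKM in DMSO replicates 1, 2 and 3. The 3 RSL3 libraries were all far above the 3 DMSO libraries, which lay close together. The mean was 17.9 ± 2.20 FPKM with RSL3 and 8.46 ± 0.25 FPKM with DMSO (SD, n = 3), a 2.12-fold difference. The log2 fold change was 1.00 ± 0.09 (SE; 95% interval 0.77 to 1.22; limma adjusted p = 0.00376), rank 12 of 10590 from the top. Mt1 passed in all 6 fits that left out a single library, with log2 fold changes of 0.90 to 1.05. The liver makes much Mt1. The liver marker list given above was lower in the RSL3 libraries, and its relation to Mt1 was not tested. In bulk RNA, a change in the number of cells and a change in RNA per cell cannot be told apart.

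Mt2, the neighbour and close relative of Mt1, was near the floor of the tables and was not tested. It stood at 0.943, 1.61 and 1.13 FPKM in RSL3 replicates 1, 2 and 3, against 0.792, 0.704 and 0.501 FPKM in DMSO replicates 1, 2 and 3. The groups did not overlap, and the gap between the lowest RSL3 library and the highest DMSO library was small. Of the tested mRNAs, which do not include Mt2, 13.4% had all RSL3 libraries above all DMSO libraries. The mean was 1.23 ± 0.34 FPKM with RSL3 and 0.67 ± 0.15 FPKM with DMSO (SD, n = 3), a 1.84-fold difference in FPKM. Without the filter on low values Mt2 had a log2 fold change of 0.41 and did not pass (limma adjusted p = 0.107). Gm45774, an antisense gene, overlaps Mt2 on the minus strand; the library kit was stranded, but no source used here says whether the counting used strand, so reads of the 2 genes may not be told apart.

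Mt3, the brain metallothionein, was listed at low levels. It stood at 2.98, 2.11 and 3.10 FPKM in RSL3 replicates 1, 2 and 3, against 1.3, 1.5 and 2.35 FPKM in DMSO replicates 1, 2 and 3. The groups overlapped, since DMSO replicate 3 lay above RSL3 replicate 2. The mean was 2.73 ± 0.54 FPKM with RSL3 and 1.72 ± 0.56 FPKM with DMSO (SD, n = 3). The log2 fold change of 0.46 ± 0.17 (SE; 95% interval 0.07 to 0.86) did not pass (limma adjusted p = 0.152), nor did it in any fit without a single library.

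**Figure D2:**
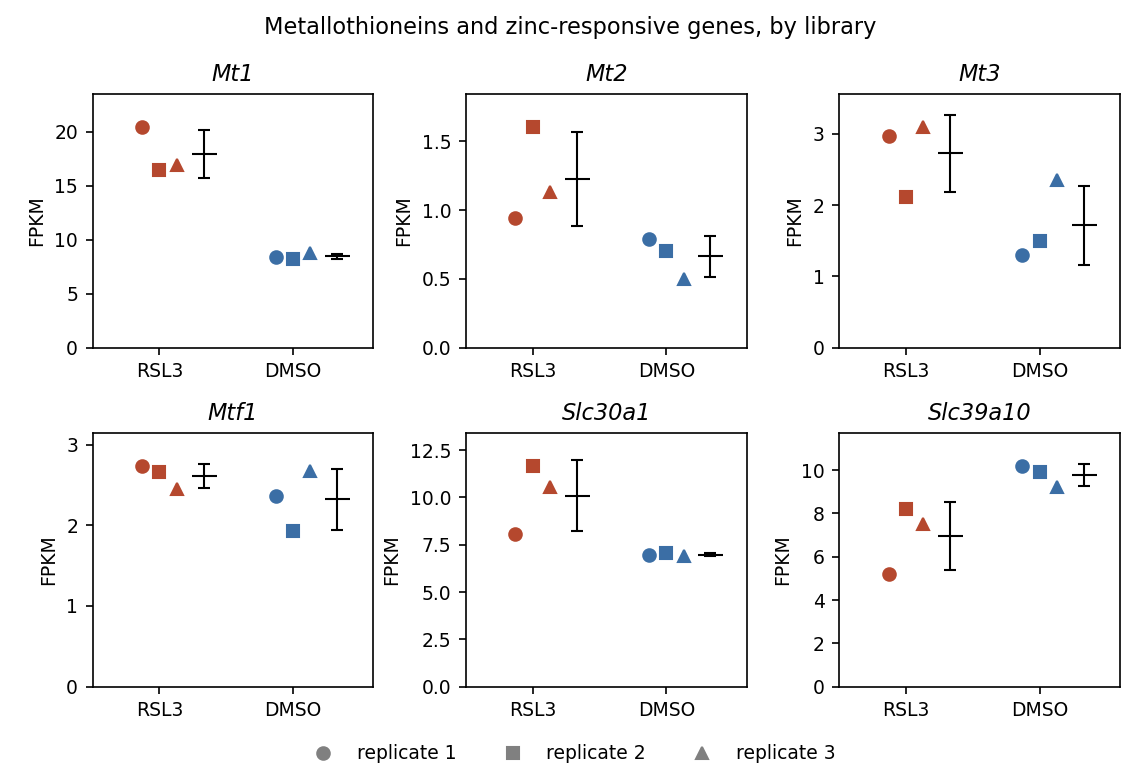
FPKM of the 6 genes in each library, RSL3 left and DMSO right, with symbols for the replicate number and bars for the mean ± SD of 3 libraries. The RSL3 libraries lie above the DMSO libraries for Mt1, Mt2 and Slc30a1 and below them for Slc39a10, and the groups overlap for Mt3 and Mtf1.

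Together the 3 metallothionein genes summed to 24.4, 20.1 and 21.2 FPKM in RSL3 replicates 1, 2 and 3, against 10.5, 10.5 and 11.6 FPKM in DMSO replicates 1, 2 and 3. All RSL3 sums were higher (21.9 ± 2.21 FPKM with RSL3 and 10.8 ± 0.65 FPKM with DMSO; SD, n = 3; exact permutation test, two-sided, p = 0.1, the smallest that 3 against 3 libraries allow). Mt1 made up most of the metallothionein signal in both groups, 81.8% ± 1.98 with RSL3 and 78.1% ± 2.41 with DMSO (SD, n = 3; exact permutation p = 0.2, two-sided). Whether Mt1 moved more than its relatives was asked with log2 ratios within each library. The Mt1 to Mt3 ratio of FPKM + 1 was 2.35 ± 0.19 with RSL3 and 1.82 ± 0.25 with DMSO, a difference of 0.53, and the Mt1 to Mt2 ratio was 3.09 ± 0.36 with RSL3 and 2.51 ± 0.17 with DMSO, a difference of 0.58 (SD, n = 3; exact permutation p = 0.1 for both, two-sided, and 0.1 after adjustment over 3 ratios). Both differences were smaller with 0.1 FPKM added in place of 1, at 0.41 for Mt1 to Mt3 and 0.29 for Mt1 to Mt2 (exact permutation p = 0.2 and 0.6). The ratio of plain FPKM between Mt1 and Mt2 was 21.7, 10.2 and 15.0 in RSL3 replicates 1, 2 and 3, against 10.6, 11.7 and 17.4 in DMSO replicates 1, 2 and 3, so that the groups overlapped. That between Mt1 and Mt3 was 6.88, 7.79 and 5.46 in RSL3 replicates 1, 2 and 3, against 6.45, 5.49 and 3.72 in DMSO replicates 1, 2 and 3, and overlapped too (exact permutation p = 0.7 for Mt1 to Mt2 and 0.3 for Mt1 to Mt3, two-sided).

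The listed mRNA genes near the metallothioneins were looked at after their values were seen. Ogfod1, Bbs2 and Nup93, within 100 kb of the cluster, had log2 fold changes of -0.13, 0.00 and -0.09 (limma adjusted p = 0.560, 0.997 and 0.604). None of these 3 neighbours passed the test. Unlisted genes of this stretch have no values here.

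Mtf1, which encodes the zinc-sensing factor itself, was not called. It stood at 2.74, 2.65 and 2.44 FPKM in RSL3 replicates 1, 2 and 3, against 2.36, 1.93 and 2.68 FPKM in DMSO replicates 1, 2 and 3. The groups overlapped, with DMSO replicate 3 above RSL3 replicates 2 and 3. The mean was 2.61 ± 0.15 FPKM with RSL3 and 2.32 ± 0.38 FPKM with DMSO (SD, n = 3), and the log2 fold change was 0.13 ± 0.10 (SE; 95% interval -0.12 to 0.37; limma adjusted p = 0.511). The end of Mtf1 is overlapped by 1110065P20Rik on the opposite strand, at 9.78, 4.69 and 5.66 FPKM with RSL3 and 8.36, 3.25 and 2.99 FPKM with DMSO in replicates 1, 2 and 3, so part of the Mtf1 value may be shared with it.

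A circular RNA from Mtf1 was also listed. Of 3168 circRNAs in the tables, 1 matched by coordinates lies in Mtf1 (chromosome 4, 124821228 to 124842591, plus strand, 21364 bases between its ends). It had 0 reads in all 3 RSL3 libraries, whose 5226, 7364 and 6782 back-splice reads in replicates 1, 2 and 3 allow a share of up to 0.0574%, 0.0407% and 0.0442%, against 8, 0 and 0 reads in DMSO replicates 1, 2 and 3. The 8 reads are 0.0850% of the 9409 of DMSO replicate 1, and the 0 counts of DMSO replicates 2 and 3 allow up to 0.0417% and 0.0418%; these limits cover counting error only. The Mtf1 circRNA was thus seen in a single library, and no difference between the groups can be read from it. Over all circRNAs, edgeR's quasi-likelihood test called 1 of 1662 tested, 0.0602%, with 108 at an unadjusted p under 0.05. The circRNAs named by other identifiers were not searched for these genes.

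Slc30a1, the zinc exporter, was higher in every RSL3 library but did not pass. It stood at 8.05, 11.7 and 10.6 FPKM in RSL3 replicates 1, 2 and 3, against 6.96, 7.04 and 6.90 FPKM in DMSO replicates 1, 2 and 3. The DMSO libraries lay very close together, and RSL3 replicate 1 was the RSL3 library nearest to them. The mean was 10.1 ± 1.86 FPKM with RSL3 and 6.97 ± 0.07 FPKM with DMSO (SD, n = 3), a 1.45-fold difference, with a log2 fold change of 0.46 ± 0.13 (SE; 95% interval 0.17 to 0.76; limma adjusted p = 0.0750). Under median-ratio scaling between libraries it was called (0.49; limma adjusted p = 0.0389), as it was with quantile normalization (0.50; adjusted p = 0.0382) and without RSL3 replicate 1 (0.60; adjusted p = 0.00496). In these fits 2.78%, 3.3% and 5.11% of all tested mRNAs were called higher. The antisense gene 1700034H15Rik overlaps Slc30a1, with the same limit on strand as for Mt2.

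Slc39a10, the zinc importer, lay the other way: lower in every RSL3 library, again without passing. It stood at 5.19, 8.18 and 7.5 FPKM in RSL3 replicates 1, 2 and 3, against 10.2, 9.91 and 9.21 FPKM in DMSO replicates 1, 2 and 3. The groups did not overlap, and RSL3 replicate 1 was the lowest library. The mean was 6.96 ± 1.57 FPKM with RSL3 and 9.78 ± 0.51 FPKM with DMSO (SD, n = 3), a ratio of 0.712, with a log2 fold change of -0.46 ± 0.15 (SE; 95% interval -0.80 to -0.11; limma adjusted p = 0.116). Slc39a10 transcripts have 42.5% GC, against 50% to 58.0% for the other 5 genes. Once GC and length trends were removed from each library, the log2 fold change was -0.33 and passed (limma adjusted p = 0.0148), in a fit that called 8.14% of all tested mRNAs lower; without RSL3 replicate 1 it was -0.29 (adjusted p = 0.0504).

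The exporter and the importer were set against each other within each library. The ratio of Slc30a1 to Slc39a10 in FPKM was 1.55, 1.43 and 1.41 in RSL3 replicates 1, 2 and 3, against 0.682, 0.710 and 0.749 in DMSO replicates 1, 2 and 3. In all 3 RSL3 libraries the exporter was above the importer, and in all 3 DMSO libraries below it. The log2 ratio of FPKM + 1 was 0.49 ± 0.06 with RSL3 and -0.43 ± 0.06 with DMSO, a difference of 0.92 (SD, n = 3; exact permutation p = 0.1, two-sided, and 0.1 after adjustment over 3 ratios). It was 0.77 with GC and length trends removed and 0.89 to 0.95 with any single library left out. RSL3 replicate 1, low for both transporters, had a ratio close to those of the other RSL3 libraries.

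**Figure D3:**
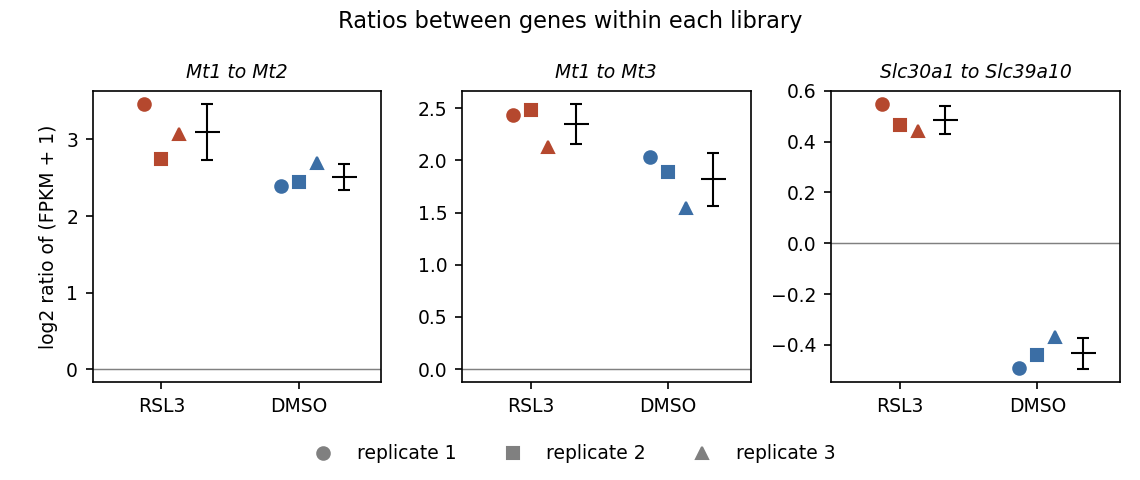
Log2 ratios of FPKM + 1 within each library, RSL3 left and DMSO right, with bars for the mean ± SD of 3 libraries. The Slc30a1 to Slc39a10 ratio is 0.49 ± 0.06 with RSL3 and -0.43 ± 0.06 with DMSO, and its libraries lie closer together than those of the metallothionein ratios.

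FPKM is scaled to transcript length and not to GC content, so the order of levels between genes is approximate. With RSL3 the order of mean FPKM was Mt1, Slc30a1, Slc39a10, Mt3, Mtf1 and Mt2. With DMSO it was Slc39a10, Mt1, Slc30a1, Mtf1, Mt3 and Mt2. Mt3 and Mtf1 overlapped in both groups, and Slc30a1 and Slc39a10 overlapped between RSL3 libraries although not within any of them. By mean FPKM the importer thus stood first with DMSO and Mt1 with RSL3. Of the 5 tested genes 1 was called higher and 0 lower, beside 2.46% and 3.92% of all tested mRNAs. Mt1 and Slc30a1 had all RSL3 libraries above all DMSO libraries, as did 13.4% of tested mRNAs, and Slc39a10 had them all below, as did 19.6%. Mt3 and Mtf1 overlapped.

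Among the other zinc transporter genes none was called, beside 2.46% called higher and 3.92% called lower of all tested mRNAs. Of 10 zinc exporter genes 6 were tested, with 0 called and a median log2 fold change of -0.12, against -0.03 for all tested mRNAs. Besides Slc30a1, the lowest and highest were Slc30a9 at -0.28 (limma adjusted p = 0.156) and Slc30a4 at 0.02 (adjusted p = 0.973). Of 14 zinc importer genes 10 were tested, with 0 called and a median of 0.01. Slc39a6, an importer of the cell surface at 37.7 ± 4.88 FPKM with RSL3 and 31.3 ± 1.65 FPKM with DMSO (SD, n = 3), had a log2 fold change of 0.26 (limma adjusted p = 0.182) and passed without RSL3 replicate 1 (0.36; adjusted p = 0.0142). Slc39a10 had the lowest log2 fold change of the importers.

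Copper handling was looked at because metallothioneins also bind copper. Of 13 genes 12 were tested, and the median log2 fold change was 0.07. Of these, 1 was called higher and 0 lower, beside 2.46% and 3.92% of all tested mRNAs. The gene called was Sco2, which helps to load copper into cytochrome c oxidase. It rose to 48.5, 41.1 and 46.8 FPKM in RSL3 replicates 1, 2 and 3, against 34.3, 33.0 and 36.5 FPKM in DMSO replicates 1, 2 and 3 (log2 fold change 0.38 ± 0.08, SE; limma adjusted p = 0.0385). All RSL3 libraries were above all DMSO libraries, as for 13.4% of tested mRNAs. The Sco2 call held in only 2 of the 6 fits without a single library, those without RSL3 replicate 1 or 2. The copper importer Slc31a1 and the copper chaperone Atox1 had log2 fold changes of -0.19 (adjusted p = 0.371) and -0.14 (adjusted p = 0.242).

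Genes reported as MTF1 targets went both ways. Of 11 such genes, Mt1, Mt2, Slc30a1 and Slc39a10 among them, 10 were tested. Of these, 2 were called higher and 3 lower, beside 2.46% and 3.92% of all tested mRNAs. The median log2 fold change was 0.01. The list includes Slc39a10, reported to be repressed through MTF1, so this median pools unlike directions of regulation. Besides Mt1, Gclc was called higher; it encodes the catalytic subunit of the first enzyme of glutathione synthesis. Gclc rose to 24.6 ± 2.31 FPKM with RSL3, against 18.7 ± 0.40 FPKM with DMSO (SD, n = 3; log2 fold change 0.37 ± 0.08, SE; limma adjusted p = 0.0423). Leaving out any library other than RSL3 replicate 1 ended the Gclc call.

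The 3 called lower were Selenoh, a nuclear selenoprotein reported to bind DNA, Selenow, a small selenoprotein with a redox fold, and Csrp1, a LIM-domain protein of the actin cytoskeleton. Selenoh fell to 19.8, 23.2 and 22.8 FPKM in RSL3 replicates 1, 2 and 3, against 38.8, 38.4 and 35.2 FPKM in DMSO replicates 1, 2 and 3 (log2 fold change -0.75 ± 0.08, SE; limma adjusted p = 0.00494). Selenow fell to 108 ± 5.39 FPKM with RSL3, against 147 ± 2.99 FPKM with DMSO (SD, n = 3; log2 fold change -0.44 ± 0.06, SE; limma adjusted p = 0.00915). Csrp1 fell to 62.0 ± 5.78 FPKM with RSL3, against 87.7 ± 2.02 FPKM with DMSO (SD, n = 3; log2 fold change -0.50 ± 0.08, SE; limma adjusted p = 0.0140). For Selenoh, Selenow and Csrp1 all RSL3 libraries lay below all DMSO libraries, as for 19.6% of tested mRNAs. Selenoh passed in 6 of 6 fits without a single library; Selenow lost the call without DMSO replicate 2 or 3, and Csrp1 without RSL3 replicate 3 or any DMSO library. Slc40a1, the iron exporter ferroportin, averaged 1.53 FPKM with RSL3 and 0.962 FPKM with DMSO and did not pass (log2 fold change 0.36; limma adjusted p = 0.102), but passed without RSL3 replicate 1 (0.44; adjusted p = 0.0402).

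Because glucocorticoids also induce Mt1 and Mt2, genes that glucocorticoids induce were set beside them. The list of 11 holds Mt1 and Mt2 themselves; 9 were tested, and Mt1 was the 1 gene called. Of the 8 tested besides Mt1, 0 were called, beside 2.46% called higher and 3.92% called lower of all tested mRNAs. Their median log2 fold change was -0.09, against -0.03 for all tested mRNAs. Fkbp5, a chaperone of the glucocorticoid receptor, Tsc22d3, which encodes GILZ, and Per1, a clock gene, had log2 fold changes of -0.14, -0.22 and -0.20 (limma adjusted p = 0.367, 0.201 and 0.272). Dusp1, a phosphatase of MAP kinases, had a log2 fold change of 0.15 (limma adjusted p = 0.218). Cdkn1a, which encodes the cell-cycle inhibitor p21, had 0.20 (adjusted p = 0.261). For Dusp1 and Cdkn1a all RSL3 libraries lay above all DMSO libraries, as for 13.4% of tested mRNAs. For Fkbp5 and Per1 they all lay below, as for 19.6%, and for Tsc22d3 the groups overlapped.

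**Figure D4:**
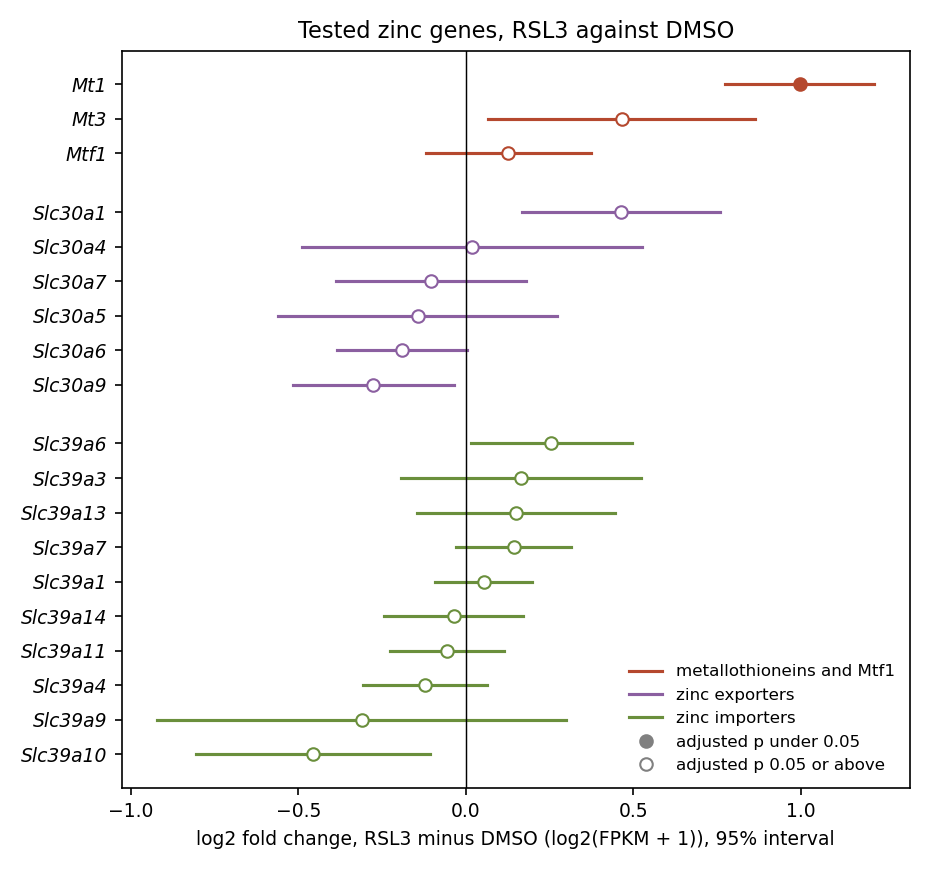
Log2 fold change (RSL3 minus DMSO, on FPKM + 1) of the tested zinc transporter genes and of Mt1, Mt3 and Mtf1, with 95% intervals. Filled points passed at an adjusted p under 0.05. Mt1 (1.00) lies farthest from 0 and is the only filled point.

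The genes whose log2(FPKM + 1) followed each of the 5 tested genes most closely were taken from mRNAs with a mean of at least 5 FPKM. The 6 libraries form 2 groups, so a high Pearson r (n = 6, a description only) can reflect a like difference between the groups and the libraries that stand apart. For Mt1 these were Ephx1 (r = 0.999), Psmd4 (0.998) and Gstp1 (0.997), with log2 fold changes of 0.45, 0.25 and 0.54 (limma adjusted p = 0.00847, 0.0466 and 0.00682). For Mt3 they were Gtf2ird1 (0.982), Lrp10 (0.982) and Zbtb39 (0.975), and for Mtf1 they were Ptch1 (0.940), Men1 (0.919) and Zfp46 (0.916). For Slc30a1 they were F3 (0.990), Apex1 (0.989) and Nlrp4c (0.987), and for Slc39a10 Idh3b (0.999), Pum3 (0.999) and Polr2g (0.998). Among the 6 genes themselves, Slc30a1 and Mt2 had r = 0.93 and Mt1 and Slc39a10 r = -0.89.

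Among the 5 tested genes, the calls of Slc30a1 and Slc39a10 depended on the processing. Mt1 stayed between 0.77 and 1.07 over the other settings with all libraries in and passed in each of them, whereas both transporters passed in the settings named above and in none of the others run. The liver markers and the ribosomal lncRNAs also differed between the groups, and their part in the differences of Mt1, Slc30a1 and Slc39a10 was not tested.

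**Figure D5:**
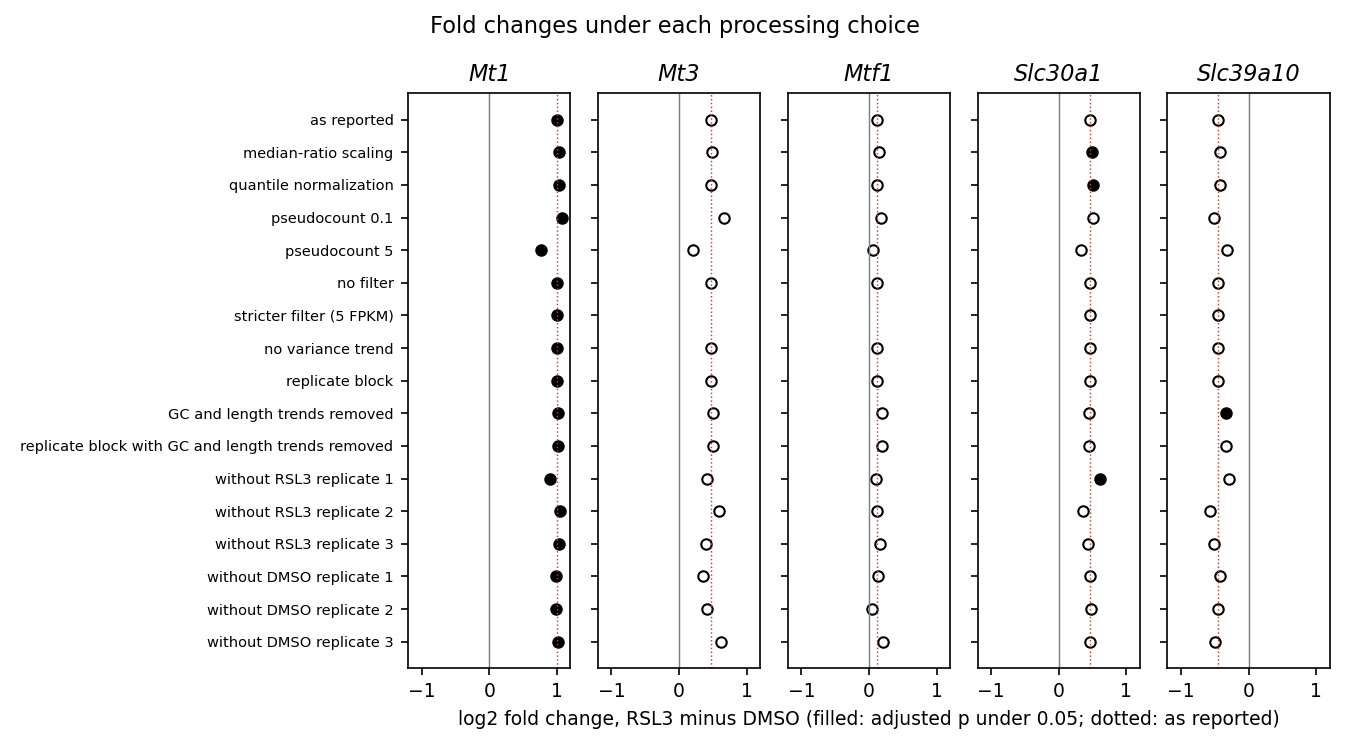
Log2 fold change (RSL3 minus DMSO) of the 5 tested genes under each processing choice and with each library left out; filled points passed at an adjusted p under 0.05, and dotted lines mark the values as reported. Mt1 is filled throughout, Slc30a1 in 3 settings and Slc39a10 in 1, while Mt3 and Mtf1 are open throughout.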

How the data were processed

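RNA-seq of 6 N2a libraries was analysed, 3 given RSL3 and 3 given DMSO, grouped by the labels' treatment field. Reads were processed with cutadapt, HISAT2 and StringTie 1.3.3 on GRCm38, per the submitters' processing notes; no source used here gives the annotation release, the use of strand in counting or any filter. mRNA and lncRNA values were deposited by the authors as FPKM, so depth is unknown and the precision rests on 3 libraries a group. The summed mRNA values were 200135 to 213765 FPKM with RSL3 and 220605 to 225295 FPKM with DMSO. The authors deposited circRNA values under a CPM heading, recorded here as a signal since the columns have unequal sums; 100% of values above 0 were whole reads within 0.01 once divided by the smallest value of their library.

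From the FPKM, limma 3.58.1 in R 4.3.3 was run with a mean-variance trend, two-sided, on log2(FPKM + 1) of mRNAs that reached 1 FPKM in 3 or more libraries, with Benjamini-Hochberg adjustment over all 10590. Mt2 was under this filter and has values only, where a test had been planned. Single ratios and sums used exact permutation tests (SciPy 1.17.1). The circRNA reads, a comparison added after seeing the data, were tested with the quasi-likelihood test of edgeR 4.0.16. Positions came from GENCODE M21 (GRCm38) and promoter windows from RefSeq (GRCm38.p6). The fit was tested on simulated data. Alternatives were median-ratio and quantile scaling, pseudocounts of 0.1 and 5, no filter and a filter at 5 FPKM, no variance trend, a replicate block, removal of GC and length trends, and leaving out each library. The 6 genes and the lists were chosen with earlier results of these data known. Named genes are the 6, every list gene that passed, and the 3 mRNAs most correlated with each tested gene; other transporters, copper, MTF1-target and glucocorticoid genes given with values (Slc30a9, Slc30a4, Slc39a6, Slc31a1, Atox1, Slc40a1, Fkbp5, Tsc22d3, Per1, Dusp1 and Cdkn1a), and the 3 neighbours of the metallothionein genes, were chosen after their values were seen.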

Additional observations from a re-analysis of the deposited data

How the results depend on the processing

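The 6 genes kept their direction under every alternative run. Leaving out each library gave log2 fold changes of 0.90 to 1.05 for Mt1, 0.29 to 0.50 for Mt2, 0.35 to 0.63 for Mt3, 0.04 to 0.20 for Mtf1, 0.36 to 0.60 for Slc30a1 and -0.57 to -0.29 for Slc39a10, and differences of 0.40 to 0.76, 0.39 to 0.64 and 0.89 to 0.95 for the ratios of Mt1 to Mt2, Mt1 to Mt3 and Slc30a1 to Slc39a10, where the smallest possible p is 0.2. Mt2 was 0.78 with 0.1 FPKM added and 0.13 with 5 FPKM added. Slc30a1 passed with median-ratio scaling (0.49) and quantile normalization (0.50), making 2 of the 6 genes and 1 zinc exporter higher, and Slc39a10 passed with GC and length trends removed (-0.33), making 1 lower. Among all mRNAs, 261 were higher and 415 lower, against 725 and 862 with the trends removed, and 47 to 541 and 97 to 758 with a library left out; the highest counts were without RSL3 replicate 1 (541 and 758). Quantile normalization gave 349 higher and 332 lower, 51.2% higher against 38.6%. With the trends removed the lists gained 1 lower exporter (Slc30a9), 1 higher (Slc39a6) and 1 lower importer (Slc39a10), a second higher copper gene (Sod1) for 2 in all, 1 lower copper gene (Sco1) and 1 lower glucocorticoid gene (Per1), and the MTF1 targets numbered 3 higher (with Slc40a1, 0.44) and 4 lower (with Slc39a10). The fit with the trends removed called 6.85% of all tested mRNAs higher and 8.14% lower, against 2.46% and 3.92% as reported. The higher copper count was 0 with median-ratio scaling, no variance trend or the replicate block, and 2 with quantile normalization. It was 0 to 1 without a library. The higher MTF1 targets numbered 1 with no variance trend or the block and 1 to 4 without a library (4 without RSL3 replicate 1), and the lower ones 1 to 3 (1 without DMSO replicate 2 or 3). The MTF1 target median was 0.18 without a filter and -0.16 with the 5 FPKM filter, by the genes that enter. Exporter medians ran from -0.22 to 0.023 (without RSL3 replicate 1) and the exporters and importers called higher from 0 to 1 with a library left out. With the replicate number as a block, 88 mRNAs were higher and 165 lower, and Mt1 passed (limma adjusted p = 0.0161). Deviations from the group means correlated at -0.15, 0.05 and -0.06 between same-numbered libraries. These deviations also carry the GC trends of single RSL3 libraries, so they cannot show whether the numbers pair the libraries. The labels state no pairing. Depth is unknown, so no counting error can be given for the low genes Mt2, Mt3 and Mtf1.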

Other observations

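Gm28151, a lncRNA within the Slc39a10 gene, stood at 0.322, 0.367 and 1.3 FPKM in RSL3 replicates 1, 2 and 3, against 0.844, 0.282 and 0.831 FPKM in DMSO replicates 1, 2 and 3. The groups overlapped. It lies on the same strand as Slc39a10, and reads in the shared stretch cannot be assigned to 1 of the 2 genes here.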
